A study of Homo sapiens with 48 samples.

Results

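RELB binding in L3.6pl cells, an established human pancreatic ductal adenocarcinoma line, was compared between 6 h of TNFα and vehicle. The members were the RELB ChIP-seq regions of these 2 conditions on chromosomes 1 to 22 and X that lay outside tandem repeats, 528 regions among the 392221 peaks that the 16 lists of the series held on these chromosomes. A region of the TNFα list was counted as gained when it shared no base with a vehicle region and as kept when it shared at least 1 bp, and a vehicle region was counted as missing when it shared no base with the TNFα list. This gave 234 gained, 172 kept and 122 missing regions.

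The series held 48 ChIP samples in 16 conditions of 3 replicates, all from L3.6pl cells with no genetic change in the labels. RELA, RELB and H3K27ac were profiled after vehicle (PBS, duration not given in the labels), TNFα for 30 min or 6 h, and TWEAK for 30 min or 6 h, and FOSL1 in vehicle alone. Peaks were deposited as 1 list per condition, so no value has a replicate error and no test over samples was possible. Every interval in brackets is an exact (Clopper-Pearson) 95% interval over regions, which covers counting error only and does not treat the conditions as replicated. Depth per sample is unknown from the lists. All lists were called against input chromatin, and RELA was precipitated with another bead type than RELB, so fold enrichments are set side by side without scaling. For RELA at 30 min of TNFα the peak names carry the label of replicate 1, and whether all replicates were pooled was not settled. Gene expression was not analysed here, so the cell type was not checked against markers.

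RELB is the NF-κB subunit of the noncanonical pathway. In resting cells it is held by the p100 precursor, and receptors such as the TWEAK receptor lead to processing of p100 into p52, which frees RELB-p52 dimers to bind DNA. TNFα acts mainly through the canonical pathway, in which IκB proteins are degraded and RELA-p50 dimers enter the nucleus within minutes; RELA in turn induces the genes for RELB and p100. Both kinds of dimer bind κB sites, short elements in promoters and enhancers, and FOSL1 is a subunit of AP-1, a factor that often occupies the same enhancers.

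The gained regions are introduced by the sequence around the summits of 7 of the strongest, 75 bases to each side as the hg38 plus strand reads, because a κB match was found in 67.1% of the 210 gained regions with RELA after TNFα and in 0 of the 24 without. Capitals mark every match of the κB consensus on either strand, and the names are those of the nearest protein-coding gene start. The first 5 are the strongest gained regions with a match.

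TNIP2, chr4:2746202-2746351: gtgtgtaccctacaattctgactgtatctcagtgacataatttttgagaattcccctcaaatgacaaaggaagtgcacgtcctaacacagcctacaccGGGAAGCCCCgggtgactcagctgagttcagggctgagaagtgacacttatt
GOLGA7B, chr10:97882662-97882811: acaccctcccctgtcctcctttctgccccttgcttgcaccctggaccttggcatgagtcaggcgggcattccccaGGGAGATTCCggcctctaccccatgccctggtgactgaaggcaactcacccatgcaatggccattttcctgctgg
ASB2, chr14:93959491-93959640: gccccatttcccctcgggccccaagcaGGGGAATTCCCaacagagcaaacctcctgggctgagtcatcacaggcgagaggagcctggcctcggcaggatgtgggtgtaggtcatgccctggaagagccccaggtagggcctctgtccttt
PDGFB, chr22:39254995-39255144: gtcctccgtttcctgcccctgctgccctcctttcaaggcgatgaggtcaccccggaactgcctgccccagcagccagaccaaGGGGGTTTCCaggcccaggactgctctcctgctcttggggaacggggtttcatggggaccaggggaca
PBX4, chr19:19591215-19591364: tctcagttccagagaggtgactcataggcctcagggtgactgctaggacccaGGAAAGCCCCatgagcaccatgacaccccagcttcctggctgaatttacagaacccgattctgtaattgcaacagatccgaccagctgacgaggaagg

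The TNIP2 region lay in intron 2 of TNIP2, which encodes a partner of the deubiquitinase A20, and within 1000 bp of an annotated transcript start. The region nearest to GOLGA7B lay in intron 13 of CRTAC1, and those of ASB2 and PBX4 in intron 2 of the gene itself. The region nearest to PDGFB, the gene of a platelet-derived growth factor subunit, lay in a lncRNA gene 10088 bp upstream. The centre of the match nearest to the summit was 28 bp away at TNIP2, 5 bp at GOLGA7B, 42 bp at ASB2, 12 bp at PDGFB and 18 bp at PBX4. The ASB2 region held 2 overlapping matches, 1 of them a palindrome that reads the same on both strands.

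The other 2 sequences are the strongest gained regions with no κB match.

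CNTNAP2, chr7:145997301-145997450: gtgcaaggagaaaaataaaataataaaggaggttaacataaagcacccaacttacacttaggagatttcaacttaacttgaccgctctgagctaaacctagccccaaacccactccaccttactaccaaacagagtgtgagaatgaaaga
PDZRN4, chr12:41363604-41363753: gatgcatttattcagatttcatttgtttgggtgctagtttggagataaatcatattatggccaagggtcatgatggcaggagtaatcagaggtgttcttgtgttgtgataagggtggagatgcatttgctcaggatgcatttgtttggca

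These 2 regions lay outside genes 118626 bp upstream of CNTNAP2 and in intron 3 of PDZRN4. Both resembled mitochondrial DNA: 40.0% and 35.7% of the 16-mers in the 200 bp around their summits occur in the mitochondrial genome. Neither region had RELA at 30 min of TNFα, FOSL1 or H3K27ac. RELA was listed at 6 h of TNFα with fold enrichments of 6.82 and 10.1, and at 6 h of TWEAK with 10.7 and 7.15.

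The gained regions were moderate RELB peaks. Their fold enrichment over input had a median of 5.12, with quartiles of 4.44 and 5.87 and a range of 1.90 to 8.98, and none reached 10. The kept regions had a median of 5.84 and a range up to 40.8, with 22 regions at 10 or more, and the missing regions had a vehicle median of 4.33. Gained regions made up 57.6% (52.7 to 62.5) of the 406 TNFα regions outside tandem repeats, and missing regions 42.1% (36.3 to 48.0) of the 290 vehicle regions. There were 1.92 (1.53 to 2.41) gained regions for each missing one. This ratio was 3.53 with a limit of 5-fold in both lists and 0.606 with tandem repeats included. It was 0.706 when only TNFα regions of at least 5-fold were set against the whole vehicle list, a limit that can only lower it. With equal numbers of the strongest regions it was 0.986, but equal numbers hold the ratio near 1 by construction. Neither of these last alternatives therefore decides the balance of gained and missing regions. The main ratio does not decide it either, since it carries the difference in list length, 406 against 290 regions, and depth is unknown. Among all merged RELA, RELB and FOSL1 sites outside tandem repeats, 0.409% held a gained RELB region.

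At the kept regions RELB was much the same in both lists. The TNFα median was 5.84 and the vehicle median 5.36, the median ratio of TNFα to vehicle was 1.05 with quartiles of 0.899 and 1.23, and 99 regions were higher and 73 lower with TNFα. Of the gained regions, 10 had a vehicle region within 500 bp without touching it. Inside tandem repeats, which held 88.5% of the TNFα list and 92.9% of the vehicle list, the same split gave 695 gained, 2425 kept and 1411 missing regions. Just inside the repeat limit, at self-match scores from 0.38 to 0.4, the TNFα list held 11 regions with 1 gained, and just outside it, from 0.4 to 0.42, 25 regions with 6 gained.

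Sequence found in several places of the genome was unevenly spread over the 3 sets. At least 50% of the 32-mers around the summit occurred a single time in the genome in 188 gained regions, or 80.3% (74.7 to 85.2), in 88 kept regions, or 51.2% (43.4 to 58.8), and in 42 missing regions, or 34.4% (26.1 to 43.6). These regions are called sequence found a single time below, and with them alone there were 4.48 gained per missing. The ratio of TNFα to vehicle at kept regions was not computed for them alone. Copies of mitochondrial DNA, with at least 10% of 16-mers shared, were 4 of the gained, 13 of the kept and 0 of the missing regions. Some of the copies passed the 50% limit all the same. Gained ones near CNTNAP2, PDZRN4 and PCBD2 had 61.5%, 70.4% and 63.9% of their 32-mers found a single time, and a kept one near KIF5C 60.9%. The 3 strongest kept regions were copies of mitochondrial DNA. They lay near IRS2 with a RELB fold enrichment of 40.8 at 6 h of TNFα and 40.2 in vehicle, near MSH3 with 23.7 and 19.2, and near KIF5C with 23.4 and 20.4. All 10 lists of RELA or RELB held each of the 3, and at IRS2 the 5 RELA lists gave between 34.5 and 42.0. The fourth and the fifth, near ZNF707 and OVCH2, held no mitochondrial 16-mers and gave 17.3 and 17.2 at 6 h of TNFα against 16.03 and 19.4 in vehicle.

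**Figure D1:**
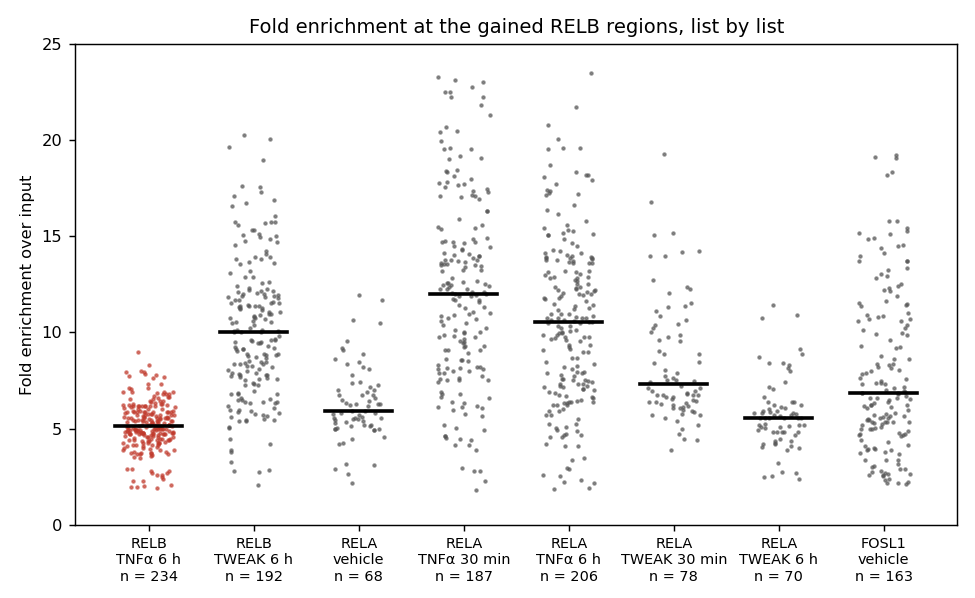
Fold enrichment over input (y axis, linear) of each gained RELB region in 8 lists; a point is a region called in that list and a bar the median, with the number of regions called below each name. RELB at 6 h of TNFα sits at a median of 5.12, and RELB at 6 h of TWEAK and RELA after TNFα have medians of 10.0, 12.01 and 10.5, not scaled between antibodies.

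RELA occupied most gained regions after TNFα. At 30 min, 187 of 234 (79.9%, 74.2 to 84.9) shared at least 1 bp with a RELA region, and at 6 h 206 of 234 (88.0%, 83.2 to 91.9). Of all merged sites, 91.6% of which had FOSL1, 14.4% had RELA at 30 min and 6.33% at 6 h. Of all merged RELA and RELB sites, which these same lists helped to define, 88.7% and 38.8% had it. RELA was at 183 gained regions at both times, at 4 at 30 min alone, at 23 at 6 h alone and at 24 at neither. The vehicle RELA list held 68 of the gained regions (29.1%, 23.3 to 35.3), against 0.756% of all merged sites and 4.65% of all merged RELA and RELB sites. RELA after TNFα without RELA in vehicle was at 143 gained regions (61.1%, 54.5 to 67.4).

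The median RELA fold enrichment was 12.01 at the 187 regions of 30 min and 10.5 at the 206 regions of 6 h, where the RELB medians at 6 h of TNFα were 5.31 and 5.23. Where RELA was called at both times the medians were 12.1 and 10.95, with 114 regions higher at 30 min and 69 higher at 6 h. The RELA summit lay a median of 22 bp from the RELB summit at 30 min and 19 bp at 6 h, and within 50 bp at 84.5% and 87.9% of the regions. FOSL1 summits lay farther away, at a median of 46 bp with 52.1% within 50 bp.

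The share with RELA after TNFα had overlapping intervals at gained and kept regions and was lower at missing ones. Kept regions had RELA in 84.9% (78.6 to 89.9) at 30 min and 93.6% (88.8 to 96.8) at 6 h, and missing regions in 48.4% (39.2 to 57.6) and 49.2% (40.0 to 58.4). In sequence found a single time the gap narrowed. There RELA at 6 h was at 96.3% (92.5 to 98.5) of the gained, 96.6% (90.4 to 99.3) of the kept and 78.6% (63.2 to 89.7) of the missing regions, and at 30 min at 90.4% (85.3 to 94.2), 95.5% (88.8 to 98.7) and 83.3% (68.6 to 93.0). RELA in vehicle separated the sets otherwise: it was at 65.7% (58.1 to 72.8) of the kept regions against 29.1% of the gained ones, and in sequence found a single time at 68.2% (57.4 to 77.7) against 30.9% (24.3 to 37.98). Missing regions had it in 29.5% (21.6 to 38.4), and in 47.6% (32.004 to 63.6) of those in sequence found a single time.

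RELB itself was listed at 30 min at 14 of the 234 gained regions (5.98%, 3.31 to 9.83) with TNFα and 8 (3.42%, 1.49 to 6.63) with TWEAK. Of all merged sites 0.251% and 0.213% had it, and of all merged RELA and RELB sites 1.56% and 1.31%. These lists held only 150 and 127 regions outside tandem repeats. Kept regions had it in 46.5% and 37.2%, and missing regions in 15.6% and 17.2%. In sequence found a single time these shares were lower. There RELB at 30 min was at 8 (4.26%) of the 188 gained regions with TNFα and at 0 with TWEAK. Kept regions there had it in 14.8% and 5.68%, and missing regions in 7.14% with either ligand. At 6 h of TWEAK RELB was listed at 192 gained regions (82.1%, 76.5 to 86.7). Of all merged sites 2.85% had it, and of all merged RELA and RELB sites 17.5%. The vehicle list that defined the gained regions is also the control of TWEAK, so the values are given side by side only. The median RELB fold enrichment at these 192 regions was 10.0 with TWEAK and 5.36 with TNFα, and TWEAK gave the higher value at 184 of them. RELB at 6 h of TWEAK was also at 88.4% (82.6 to 92.8) of the kept and 41.0% (32.2 to 50.3) of the missing regions, and in sequence found a single time at 92.6% (87.8 to 95.9) of the gained, all 88 of the kept and 85.7% (71.5 to 94.6) of the missing regions. RELA with TWEAK was at 78 gained regions at 30 min and 70 at 6 h, close to its 68 in vehicle. Of all merged sites 1.18%, 0.772% and 0.756% had it.

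**Figure D2:**
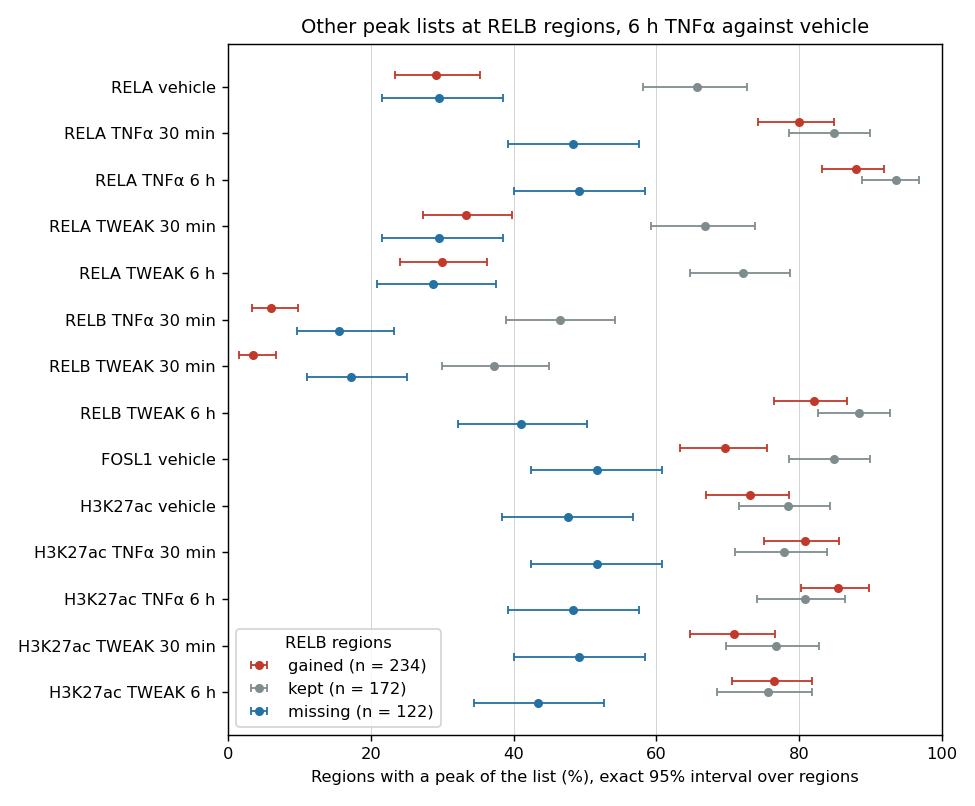
Share of gained, kept and missing RELB regions (x axis, percent) with a peak of each other list (y axis); points are shares and bars exact 95% intervals over regions. Gained regions lie with kept ones for RELA after TNFα (79.9% and 88.0%) and RELB at 6 h of TWEAK (82.1%), and, with repeated sequence included, near missing ones for RELA in vehicle (29.1% and 29.5%).

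Gained RELB regions were most frequent in the strongest RELA regions. Of the 3657 RELA regions at 6 h outside tandem repeats, 5.63% (4.91 to 6.43) did so. The regions were split by fold enrichment into classes of 20%. In the highest class, from 9.85 to 41.7, the share was 15.8% (13.3 to 18.7). It did not rise evenly: from the lowest class upward the others gave 2.73%, 1.09%, 3.01% and 5.47%. The 8304 RELA regions at 30 min gave 2.25% (1.94 to 2.59) in all, 7.47% (6.25 to 8.84) in the highest class and, from the lowest upward, 0.783%, 0.241%, 0.783% and 1.99% in the others. A kept RELB region was held by 11.6% of the highest class at 6 h, by 5.19% of the lowest and by 0.684% of the class above the lowest.

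A match of the κB consensus lay within 100 bp of the summit in 141 of the 234 gained regions (60.3%, 53.7 to 66.6), in 38.4% (31.1 to 46.1) of the kept and 22.1% (15.1 to 30.5) of the missing regions, and in 8.70% of all merged sites. RELA regions at 30 min held a match in 46.2% (45.1 to 47.3) and FOSL1 regions outside the RELA and RELB lists in 2.19%. In sequence found a single time the shares were 69.7% (62.6 to 76.2) for gained, 70.5% (59.8 to 79.7) for kept and 54.8% (38.7 to 70.2) for missing regions, so the intervals of gained and kept regions overlapped. The match nearest to the summit had its centre a median of 11.5 bp away in kept and 23 bp in missing regions. It was within 25 bp in 81.8% and 55.6% of those with a match. In gained regions the median was 17 bp, with 67.4% within 25 bp. There were 40 distinct matches, and the most frequent one, GGGACTTTCC, occurred in 25 gained regions; GGGAAATTCC, GGGGAATTCC and GGGGCTTTCC occurred in 13 each.

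All 141 gained regions with a match had RELA at 6 h of TNFα and 138 had it at 30 min, against 65 and 49 of the 93 without a match. RELB at 6 h of TWEAK was listed at 136 of the 141 (96.5%, 91.9 to 98.8) and at 56 of the 93 (60.2%, 49.5 to 70.2). The RELB median at 6 h of TNFα was 5.38 with and 4.75 without a match. FOSL1 was at 69.5% (61.2 to 77.0) and 69.9% (59.5 to 79.0), with overlapping intervals. Regions without a match were also poorer in sequence found a single time, at 61.3% against 92.9%.

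The AP-1 consensus, TGANTCA with C or G at the N, lay within 100 bp of 31.6% (25.7 to 38.0) of the gained, 19.2% (13.6 to 25.9) of the kept and 9.84% (5.19 to 16.6) of the missing summits, and of 39.4% of all merged sites, most of which are FOSL1 regions. In sequence found a single time the shares were 36.7% (29.8 to 44.02), 37.5% (27.4 to 48.5) and 21.4% (10.3 to 36.8), with overlapping intervals. Both consensus sequences occurred together in 19.2% (14.4 to 24.9) of the gained regions. FOSL1 in vehicle was at 163 gained regions (69.7%, 63.3 to 75.5), at 84.9% (78.6 to 89.9) of the kept and 51.6% (42.4 to 60.8) of the missing ones. In sequence found a single time it was at 75% (68.2 to 81.0) of the gained, 90.9% (82.9 to 96.0) of the kept and 76.2% (60.5 to 87.9) of the missing regions, so gained and missing regions had overlapping intervals there. Of all merged RELA and RELB sites, 48.5% had FOSL1.

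**Figure D3:**
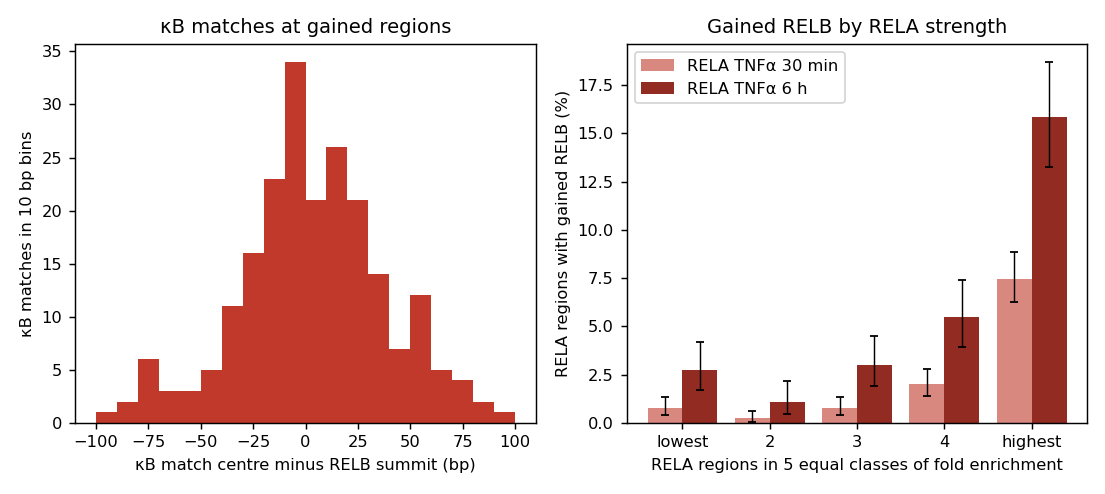
Left, number of κB matches in gained regions (y axis) by the distance of their centre from the RELB summit in bp (x axis, 10 bp bins); right, share of RELA regions with a gained RELB region (y axis, percent, exact 95% intervals) in 5 equal classes of RELA fold enrichment (x axis). Matches gather at the summit, with a median distance of 17 bp for the nearest, against 11.5 bp in kept regions (not drawn). The highest class of RELA regions at 6 h reaches 15.8%.

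The gained regions without RELA at 30 min or 6 h of TNFα stood apart in the features that the RELA lists had not chosen. None of the 24 held a κB match, which allows a share of up to 14.2% (exact interval), against 138 of the 183 (75.4%, 68.5 to 81.5) with RELA at both times and 3 of the 23 with RELA at 6 h alone. RELB at 6 h of TWEAK was at 4 of the 24, at 172 of the 183 (94.0%, 89.5 to 97.0) and at 13 of the 23. Their RELB fold enrichment had a median of 4.44 against 5.31 with RELA at both times. Only 5 of the 24 lay in sequence found a single time, against 168 of the 183, and the part of repeated sequence in the other differences was not tested.

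These 5 lay nearest to RNF19B, ATP1B3, HAS2, TUT7 and ASPN and were picked out after their values were seen. All had FOSL1, and the first 4 had RELB at 6 h of TWEAK. The RNF19B region, in a lncRNA gene 39935 bp upstream of this ubiquitin ligase gene, was the strongest of them, with a RELB fold enrichment of 6.52 with TNFα and 15.7 with TWEAK, a FOSL1 value of 10.8 and H3K27ac in every list. Of the 5 strongest regions without RELA it was the single one in such sequence; the others lay near DEFB115 (6.78), AMY2A (5.14), PROS1 (4.96) and DUX4 (4.85), where between 0% and 18.9% of the 32-mers were found a single time. The 4 regions with RELA at 30 min alone lay near IPO7 and PGPEP1, with RELB fold enrichments of 5.85 and 5.64, and as a pair near ATP6V0D2, with 2.79 and 2.35 and no 32-mer found a single time.

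**Figure D4:**
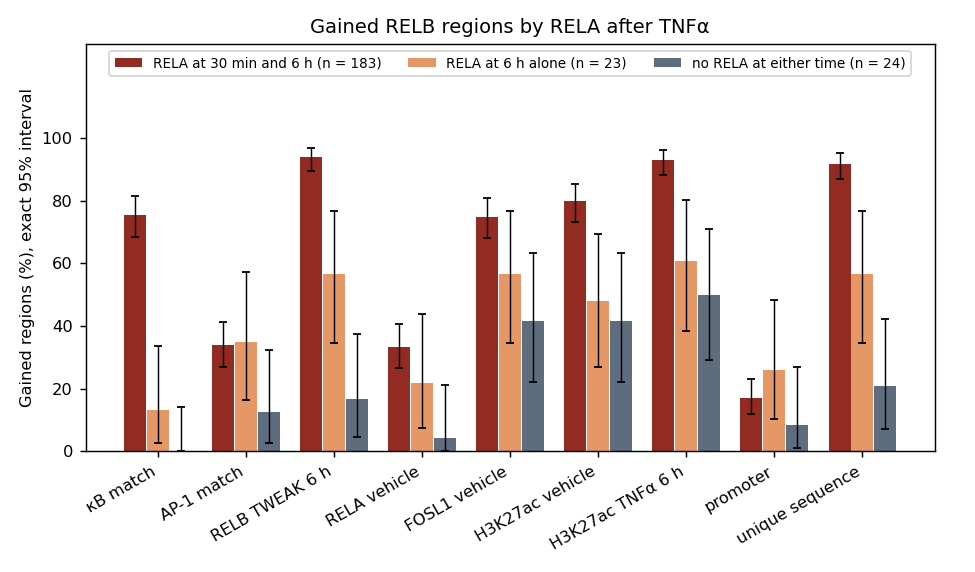
Share of gained RELB regions (y axis, percent, exact 95% intervals over regions) with each feature (x axis), by whether RELA was listed after TNFα at 30 min and 6 h, at 6 h alone or at neither time; unique sequence means that at least 50% of the 32-mers around the summit occur a single time in the genome. The κB match falls from 75.4% of 183 regions to 0 of 24, and unique sequence from 91.8% to 20.8%.

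H3K27ac, a mark of active promoters and enhancers, was within 500 bp of 171 gained summits in vehicle (73.1%, 66.9 to 78.6) and of 200 at 6 h of TNFα (85.5%, 80.3 to 89.7), where 68.1% and 69.1% of all merged sites had it. Of all merged RELA and RELB sites, which hold fewer FOSL1 regions, 61.9% had it in vehicle, 71.5% at 30 min of TNFα and 69.9% at 6 h, so the share was higher after TNFα there too. Region by region, 31 gained regions were acetylated at 6 h of TNFα and not in vehicle and 2 the other way, a ratio of 15.5 (3.94 to 134). At 30 min of TNFα the counts were 25 and 7, a ratio of 3.57 (1.502 to 9.78). At 6 h of TWEAK they were 13 and 5, a ratio of 2.6 (0.870 to 9.31). Kept regions gave 9 and 5 at 6 h of TNFα, missing regions 6 and 5, and FOSL1 regions outside the RELA and RELB lists 1841 and 2011, a ratio of 0.915 (0.859 to 0.976). Among the 183 gained regions with RELA at both times, 24 turned acetylated at 6 h and 0 the other way, and among the 24 without RELA the counts were 4 and 2.

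Gained regions lay mostly away from promoters. The summit was within 1000 bp of a transcript start of a protein-coding gene in 40 regions (17.1%, 12.5 to 22.5), where 22.4% of all merged sites were, in an intron of a protein-coding gene in 67 (28.6%, 22.9 to 34.9), in a lncRNA gene in 39, in a UTR in 3, in a coding exon in 0, and outside these in 85 (36.3%, 30.2 to 42.8). Kept and missing regions were at promoters in 12.8% (8.19 to 18.7) and 11.5% (6.42 to 18.5). The median distance from a gained summit to the nearest gene start was 36158 bp, and 75.2% (69.2 to 80.6) lay within 100000 bp. All merged sites were close to this, with a median of 35924 bp and 72.2% within 100000 bp. Of all merged sites 34.3% lay in introns, 13.0% in lncRNA genes and 28.5% outside genes. The 234 regions had 221 distinct nearest genes. ITGB8, the gene of an integrin subunit, SERTAD2, TBL1XR1 and EXT1 had 2 gained regions each in sequence found a single time, and the 5 regions nearest to TPTE had no 32-mer found a single time and RELB fold enrichments of 1.90 to 2.29.

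The 15 strongest gained regions reached RELB fold enrichments from 7.08 to 8.98. The highest, at TNIP2, had 8.98 with TNFα and 19.6 with TWEAK at 6 h, and its RELA value after TNFα was 6.93 at 30 min and 18.3 at 6 h, with no RELA peak in vehicle. The CRTAC1 intron nearest to GOLGA7B had 8.02 with TNFα and 20.3 with TWEAK and, unlike TNIP2, RELA in all 5 lists, between 11.4 and 23.5. ASB2, the gene of a ubiquitin ligase subunit, had RELA in all 5 lists too, with 23.3 at 30 min of TNFα, 16.6 at 6 h and 10.5 in vehicle. The PDGFB region likewise had RELA in all 5, with 9.23 and 13.9 after TNFα and 5.78 in vehicle.

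At 6 further regions RELA was higher after TNFα than in vehicle or was absent from the vehicle list. The region 12704 bp upstream of HMGA1, the gene of a chromatin architectural protein, had a RELB value of 7.73 and RELA values of 14.3 at 30 min and 15.0 at 6 h, against 5.61 in vehicle. In intron 1 of SH3RF3 the RELB value was 7.605 and RELA gave 15.9 and 13.6, against 5.49 in vehicle. PBX4, TSHZ2 and PTP4A3 had RELA after TNFα with none in vehicle, with 10.7, 10.2 and 17.3 at 30 min and 10.0, 7.23 and 7.93 at 6 h. ALG6, the gene of a glucosyltransferase of protein glycosylation, had the summit 170 bp upstream of its start, with RELB at 7.13 and RELA at 11.1 and 15.1, against 6.29 in vehicle.

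The remaining 5 of the 15 lacked RELA at 30 min of TNFα or resembled mitochondrial DNA. In intron 5 of PSMB7, the gene of a proteasome subunit, RELA was listed at 6 h of TNFα (10.6) and not at 30 min, and RELB was at 7.29 with TNFα and 20.1 with TWEAK. CNTNAP2, PDZRN4 and PCBD2 were the mitochondrial copies, with RELB at 8.29, 7.94 and 7.69; the fourth gained copy lay near OR4F16 with 2.90. The CREBBP region lay in intron 2 of this acetyltransferase gene, within 1000 bp of a transcript start. It had RELB at 7.08, no H3K27ac in any list and 43.8% of its 32-mers found a single time. RELB was also listed there at 30 min of TNFα (10.1) and of TWEAK (9.24) and at 6 h of TWEAK (6.49). RELA was listed there in vehicle (6.87), at 6 h of TNFα (7.17) and at 6 h of TWEAK (10.9).

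The 5 strongest missing regions were all listed for RELB at 30 min of TNFα, between 6.44 and 7.43. Near ITGB6, PATJ, CDH8 and BICC1 no 32-mer was found a single time, and RELB in vehicle was 8.45, 7.70, 7.64 and 7.38. The fifth, near FAM181B, had RELB at 7.70 in vehicle and at 19.5 after 6 h of TWEAK, and RELA at 25.7 in vehicle and 18.8 at 6 h of TNFα.

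Genes of NF-κB signalling and its usual targets were examined in 14 lists with 216 genes, all matched to GENCODE 44. A gained region lay within 50 kb of the start of 12 of them (5.56%, 2.90 to 9.50), against 1.37% of the 19368 protein-coding genes, a kept region near 13 (6.02%, 3.24 to 10.1), against 0.878%, and a missing region near 3 (1.39%, 0.287 to 4.01), against 0.604%. Within 10 kb, 4 genes had a gained region. The 12 genes shared 10 gained regions, since BIRC2 with BIRC3 and TNFRSF12A with IL32 are neighbours.

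The inhibitors and feedback regulators had gained and kept regions side by side. NFKBIA, which encodes IκBα, had a gained region 82 bp upstream of its start with RELB at 5.43 at 6 h of TNFα, and RELA at 9.77 and 8.65 after TNFα and 4.96 in vehicle. A second NFKBIA region 757 bp downstream was kept, with RELB at 9.23 in vehicle and 6.14 with TNFα. TNIP1, which like TNIP2 encodes a partner of A20, had a gained region in an intron 10063 bp downstream with RELB at 5.07 and RELA at 5.76 and 7.04, acetylated at 6 h of TNFα alone, and a kept one 12504 bp downstream with RELB at 5.71 in vehicle and 4.33 with TNFα. The A20 gene itself, TNFAIP3, and the deubiquitinase gene CYLD had kept regions at their starts alone, with RELB at 9.12 and 8.38 in vehicle and 7.52 and 6.49 with TNFα.

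Among the subunit genes, the p100 gene NFKB2 had 2 kept regions at its promoter, with RELB at 6.17 and 4.72 in vehicle and 7.70 and 6.94 with TNFα. None of the 5 subunit genes had a gained region, with an exact interval up to 52.2%. The cIAP genes BIRC2 and BIRC3 shared a gained region 11098 bp upstream of BIRC3, a weak one with RELB at 3.65, RELA at 4.49 and 3.38 and no κB match, and 2 kept regions, the stronger of which lay 164 bp upstream of BIRC3 with RELB at 6.97 in vehicle and 8.90 with TNFα. TRAF2, the gene of the adaptor that recruits the cIAPs, had a kept region with RELB at 8.06 and 11.1.

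Several of the gained regions lay within 50 kb of receptor and cytokine genes. The region 20 bp downstream of the IL32 start, also 46872 bp from the TWEAK receptor gene TNFRSF12A, had RELB at 6.15 and RELA at 17.6 and 14.3 after TNFα with none in vehicle, and it carried H3K27ac in each treated list and not in vehicle. A region in intron 2 of PLEKHG6, 2461 bp downstream of the start of that gene and within 1000 bp of a transcript start, had RELB at 5.93. RELA there was at 13.2 and 10.8, again with none in vehicle. It was listed because it lay 29217 bp downstream of the start of the TNFα receptor gene TNFRSF1A, outside that gene. LIF, an interleukin-6 family cytokine, had a gained region 4212 bp upstream with RELB at 4.31 and RELA at 13.8 and 13.999 after TNFα and 7.40 in vehicle, acetylated at 30 min of TNFα alone. The death receptor genes TNFRSF10B and TNFRSF10C shared a kept region with RELB at 4.94 in vehicle and 7.27 with TNFα and RELA at 26.6 and 22.1 after TNFα, and TNFRSF10A had a missing one with RELB at 5.63 in vehicle and RELA at 12.6 and 11.2 after TNFα. NGFR and the cytokine gene EBI3 had kept regions, with RELB at 4.09 and 8.66 in vehicle and 7.27 and 7.51 with TNFα. The chemokine, TNF ligand, survival and interferon lists, with 17, 15, 14 and 27 genes, had 0 genes with a gained region. The exact intervals reach 19.5%, 21.8%, 23.2% and 12.8%, so they include the 1.37% of all protein-coding genes. RELA at 6 h of TNFα was within 50 kb of 14, 6, 8 and 12 of these genes, against 19.5% of all protein-coding genes.

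The remaining lists gave 1 gained region each at most. The FOSL1 gene had one 12469 bp upstream with RELB at 5.50 and RELA at 10.0 and 10.95 after TNFα and 5.57 in vehicle, with no FOSL1 peak on it. The NOS2 region, 39995 bp upstream of this nitric oxide synthase gene, had RELB at 5.35 and RELA at 8.30 and 9.96, acetylated at 6 h of TNFα alone, in sequence with no 32-mer found a single time. Of the AP-1 genes JUNB had a missing region, with RELB at 3.59 in vehicle and 7.79 at 6 h of TWEAK and RELA at 12.1 and 10.7 after TNFα. MAFK also had a missing region, weak in vehicle (3.28) and listed for no RELA condition, and MAFF, a small MAF protein gene, a kept one with RELB at 7.62 in vehicle and 6.01 with TNFα.

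**Figure D5:**
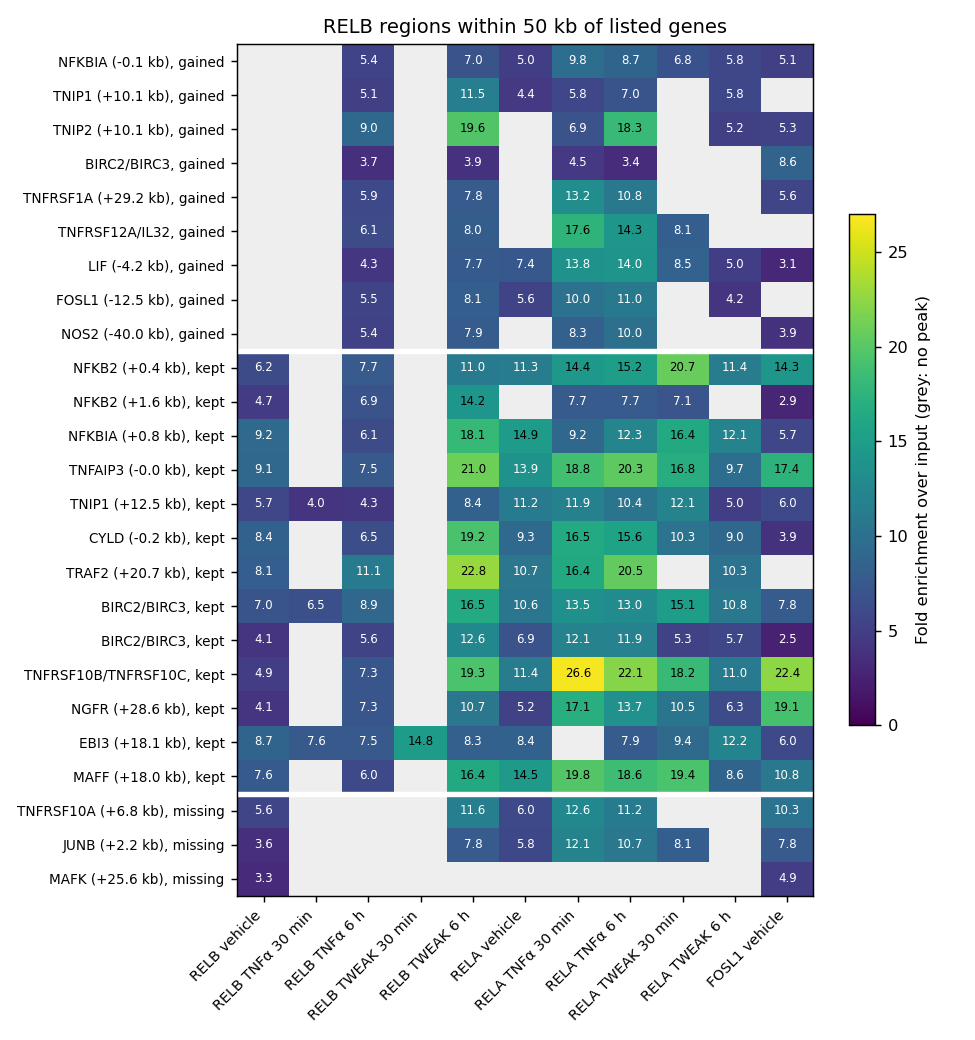
Fold enrichment over input (colour and printed value) of RELB regions within 50 kb of listed genes, the adhesion and matrix list left out (rows, with the offset of the summit from the gene start in kb where 1 gene is named, and the set) in 11 lists (columns); grey means no peak. The gained rows carry RELB at 6 h of TNFα between 3.65 and 8.98, RELA at both TNFα times and RELB at 6 h of TWEAK in every row.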

How the data were processed

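The series holds 48 ChIP-seq samples of L3.6pl cells, mapped to 16 conditions by their labels. The authors deposited 1 MACS2 peak list per condition, called against input chromatin on hg38, 11 narrow and 5 broad; the submitters' processing notes name Bowtie2 2.5.0, SAMtools 1.18 and deepTools 3.3.2, and the MACS2 version is not given in the sources used here. The deposited fold enrichment is the authors' ratio of ChIP over input at the summit, or averaged over a broad peak. The deposited −log10 q is the authors' significance of a peak; it ranked peaks in 1 alternative and set a limit in another. The 16 columns of −log10 p were not used.

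Peaks on chromosomes 1 to 22 and X were used. Tandem repeats were regions whose 1000 bp around the summit matched themselves in at least 0.4 of bases at a shift of 1 to 400 bp. Overlap meant at least 1 bp. Sequences come from hg38 and genes from GENCODE 44 (loci with only a clone name left out). A gene start is the 5′ end of the gene, a promoter the 1000 bp around any transcript start, and the nearest gene the one whose start is closest to the summit. The κB and AP-1 consensus sequences were searched on both strands within 100 bp of summits. Merged sites are overlapping RELA, RELB and FOSL1 peaks outside tandem repeats, joined; they include the members. Own code ran on pysam 0.24.0, scipy 1.17.1, pandas 2.3.3 and numpy 2.4.6 under Python 3.11.15 and was tested on simulated data.

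The regions named are the 15 strongest gained, the 5 strongest gained without RELA, the 5 strongest kept, the 5 strongest missing, and the listed genes with a gained region within 50 kb, except 1 that is not reported here; kept and missing regions of listed genes and the other regions named were added after their values were seen. The members and lists were chosen with earlier results of these data known. Depth is unknown, and no test over samples was possible.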

Additional observations from a re-analysis of the deposited data

How the results depend on the processing

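No paired analysis was possible because each condition has 1 pooled list, and leaving out a replicate was not possible either. Of 128 recomputed values, 69 stayed within 1.5 times the main count or within the main 95% interval and 59 moved. No value moved with a q of at most 0.01 in both RELB lists, with at least 50% of the shorter region shared, with a gap of up to 500 bp counted as overlap, or with mitochondrial copies left out, an alternative chosen after seeing the data. The shares below are given in the order RELA at 30 min and 6 h of TNFα, RELB at 6 h of TWEAK, H3K27ac at 6 h of TNFα and κB match, all of gained regions, and the main values are 79.9%, 88.0%, 82.1%, 85.5% and 60.3%. With a self-match limit of 0.5 they were 68.0%, 78.2%, 70.4%, 74.1% and 48.6%, with 411 kept and 250 missing regions, 1.18 gained per missing and H3K27ac in vehicle at 61.6%. With tandem repeats included they were 36.4%, 48.1%, 33.9%, 37.5% and 15.6%, with 929 gained, 2597 kept and 1533 missing regions, 0.606 gained per missing, FOSL1 at 57.6%, H3K27ac in vehicle at 32% and promoters at 4.63%. With a fold enrichment of at least 5 in both lists they were 90.8%, 96.1%, 94.1%, 91.4% and 72.4%, with 152 gained, 86 kept and 43 missing regions and 3.53 gained per missing. With that limit at 6 h of TNFα alone they were 91.2%, 96.0%, 94.4%, 90.4% and 74.4%, with 125 gained and 113 kept regions and 0.706 gained per missing. With equal numbers of the strongest peaks they were 87.2%, 94.3%, 92.2%, 90.1% and 68.8%, with 141 gained regions and 0.986 gained per missing. With regions in sequence found a single time alone, chosen after seeing the data, they were 90.4%, 96.3%, 92.6%, 93.1% and 69.7%, with 88 kept and 42 missing regions, 4.48 gained per missing and H3K27ac in vehicle at 80.9%. An H3K27ac peak on the region itself was at 54.3% in vehicle and 61.1% at 6 h of TNFα, a promoter window of 5000 bp gave 29.5%, a motif window of 50 bp gave a κB share of 51.7%, and 4 listed genes had a gained region within 10 kb. The gained per missing ratio therefore moved with the repeat limit, the fold limit in both lists and the limit to sequence found a single time, and the cause was not tested. Its values with a fold limit at 6 h of TNFα alone and with equal numbers of peaks follow largely from how those alternatives are set. The main ratio in turn carries the difference in length between the 2 RELB lists.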
